A study of Homo sapiens with 12 samples.

Results

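The genes described here are the ephrins, Eph receptors, semaphorins and plexins, together with the neuropilins and part of the SLIT, ROBO and netrin system, in SK-UT-1, an established line of human uterine leiomyosarcoma (uLMS) cells. They were chosen by symbol: every symbol that starts with EPHA, EPHB, EFNA, EFNB, SEMA or PLXN, plus NRP1, NRP2, SLIT2, SLIT3, ROBO1, ROBO2, UNC5B, NTN1 and NTN4. The rule found 60 genes among the 22784 symbols of the expression table: 8 ephrins, 14 Eph receptors, 20 semaphorins, 9 plexins, 2 neuropilins and 7 genes of the SLIT, ROBO, netrin and UNC5B group. The 4 antisense RNAs that carry such a symbol were left out.

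SK-UT-1 cells received vehicle (VEH), JQ1 or I-BET 762, the inhibitors at 5 µM for 48 h, and whole-transcriptome RNA-seq was run. Both compounds compete with acetylated lysine for the bromodomains of the BET (bromodomain and extra-terminal) proteins, readers of histone acetylation. The libraries used here number 3 for VEH, 4 for JQ1 and 3 for I-BET 762, out of 4 labelled in each group. All of them come from 1 established tumor line, and the labels do not say whether replicates are separate cultures, so p-values measure only the spread between these libraries.

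Ephs and ephrins signal between touching cells: the Eph receptors are tyrosine kinases, ephrin-As are held in the membrane by a lipid anchor and ephrin-Bs cross it, and both partners can signal. Semaphorins act on plexins, whose intracellular part acts on small GTPases, and most class 3 semaphorins, which are secreted, need a neuropilin as co-receptor. SLITs are secreted ligands of ROBO receptors, and netrin-1 binds UNC5 receptors. All of these were first known from axon guidance and also shape vessels, epithelia and tumor cell movement.

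The promoters of some members that moved strongly with both inhibitors are shown first, since BET proteins act at promoters and enhancers. They are the members called lower or higher with both inhibitors whose smaller log2 fold change of the pair was largest, 2 in each direction, among those whose RefSeq start lies at the start of the Gencode gene or at most 500 bases before it. Each line gives the 250 bases before the transcription start on the strand of the gene, 5′ to 3′, from RefSeq on GRCh38.p14. Capitals mark every match, on either strand, to the GC box GGGCGG, the CCAAT box CCAAT, the E-box CACGTG, the AP-1 site TGACTCA or the TATA motif TATAAA. SEMA3D and EFNA2 fell, and EFNB2 and SLIT2 rose. PLXNA4, SEMA6B and EPHA7 fell more than these with both inhibitors but had no RefSeq promoter that met the condition on the start. SEMA3D passed the filter on low values only through its VEH libraries, and EFNB2 and SLIT2 only through treated ones.

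SEMA3D, chr7:85187057-85187306, minus strand: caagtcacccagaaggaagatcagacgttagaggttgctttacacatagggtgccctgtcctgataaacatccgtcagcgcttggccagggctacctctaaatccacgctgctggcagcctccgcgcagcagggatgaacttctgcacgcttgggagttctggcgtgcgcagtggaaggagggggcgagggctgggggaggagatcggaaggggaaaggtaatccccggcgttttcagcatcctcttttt

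EFNA2, chr19:1285623-1285872, plus strand: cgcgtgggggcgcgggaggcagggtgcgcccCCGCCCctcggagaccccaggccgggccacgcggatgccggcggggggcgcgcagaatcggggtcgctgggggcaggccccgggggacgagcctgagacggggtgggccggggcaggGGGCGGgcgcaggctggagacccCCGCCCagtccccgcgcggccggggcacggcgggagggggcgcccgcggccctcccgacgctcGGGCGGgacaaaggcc

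EFNB2, chr13:106535663-106535912, minus strand: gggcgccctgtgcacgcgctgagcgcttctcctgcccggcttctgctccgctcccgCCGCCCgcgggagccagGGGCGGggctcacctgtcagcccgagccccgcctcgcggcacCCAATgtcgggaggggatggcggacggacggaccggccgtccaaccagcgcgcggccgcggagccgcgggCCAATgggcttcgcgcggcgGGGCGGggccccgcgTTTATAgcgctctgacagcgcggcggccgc

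SLIT2, chr4:20251655-20251904, plus strand: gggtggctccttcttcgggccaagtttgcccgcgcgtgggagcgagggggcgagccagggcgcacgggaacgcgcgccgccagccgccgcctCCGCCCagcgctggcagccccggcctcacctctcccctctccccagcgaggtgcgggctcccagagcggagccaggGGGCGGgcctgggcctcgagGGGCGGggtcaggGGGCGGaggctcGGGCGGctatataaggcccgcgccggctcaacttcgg

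The SEMA3D window held none of the 5 motifs, and 57.6% of its bases were G or C. The EFNA2 window held 4 GC boxes, the EFNB2 window 3 GC boxes, 2 CCAAT boxes and 1 TATA motif, and the SLIT2 window 5 GC boxes. A promoter was found for 52 of the 60 members. The GC box was present in 73.1% of these and in 42.3% of all 27305 RefSeq promoters of the same length, and the median GC content was 64.4% against 58%. The CCAAT box was present in 34.6% of the members' promoters and 33% of all, and the E-box in 7.69% and 6.49%. TATAAA was present in 1.92% and 11.1%, and TGACTCA in 0 of 52 members' promoters and 4.16% of all. These matches describe letters in a window and say nothing of which factor binds there.

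Sequencing depth was similar over the libraries, at 35564586 to 39658989 reads on genes. Values are given as normalised counts, that is reads scaled for library size, and 3 reads correspond to 2.73 to 3.30 normalised counts. Of the 60 members, 46 reached a normalised count of 10 in at least 3 libraries and were tested: 7 ephrins, 8 Eph receptors, 16 semaphorins, 8 plexins, 2 neuropilins and 5 of the SLIT, ROBO, netrin and UNC5B group. JQ1 replicate 18 stood apart from the other JQ1 libraries. The chi-square per gene of the read counts of 2 libraries, which is near 1 under counting error alone, was 20.6 to 22.1 for its pairs. JQ1 replicate 20 also lay apart, though less, at 15.3 with replicate 17 and 12.6 with replicate 19. Replicates 17 and 19 gave 5.38, and pairs within VEH and I-BET 762 gave 2.77 to 7.32. With JQ1 replicate 18 left out, 26 members were called with JQ1 against VEH, 9 higher and 17 lower, as with it. Between the inhibitors 7 were called without it, 1 higher (EPHA2, gained) and 6 lower, with EPHA8 lost. Of all 14797 symbols then tested, 5310 were called with JQ1 against VEH and 850 between the inhibitors. The smooth muscle markers, checked against the labelled cell type, were present in part. ACTA2, smooth muscle actin, lay at 6899 to 7326 normalised counts in VEH and CALD1 at 9017 to 9738, while MYOCD, which encodes the smooth muscle master co-activator, was at 0 to 0.910 and MYH11 had no value. The summed smooth muscle level was 20500 to 21136 in VEH, 10662 to 11269 with JQ1 and 11822 to 12374 with I-BET 762. ACTA2, TAGLN, CNN1, DES, CALD1 and LMOD1 were each lower in every treated library than in every VEH library. SMTN did not fall, at 2132 to 2573 in VEH, 2342.5 to 2884.5 with JQ1 and 2568 to 2740 with I-BET 762. Of the smooth muscle markers, 8 of 9 were in the table and 7 passed the filter. The 5 epithelial markers, of which 4 passed, summed to 1212 to 1271, 511 to 602 and 497 to 544 in the same order, and the 4 neuronal ones, of which 3 passed, to 282 to 366, 151 to 170 and 204 to 231. The neuronal markers did not move together, since SNAP25 (157 to 220, 41.6 to 49.0 and 75.8 to 81.2) and MAP2 (90.6 to 102, 25.0 to 27.4 and 27.1 to 48.2) were lower with the inhibitors and SYP (25.9 to 32.9, 81.1 to 96.8 and 93.2 to 105) was higher. The 4 mesenchymal markers all passed and summed to 127750 to 136900, 159570 to 171850 and 136540 to 140090. VIM made up most of that sum, and these markers did not move together. VIM (110810 to 119350, 150130 to 161470 and 123920 to 126880) and FN1 (38.8 to 64.6, 73.6 to 146 and 83.6 to 100) were higher with the inhibitors. The collagen chains COL1A1 (132 to 217, 9.79 to 24.3 and 35.4 to 39.1) and COL1A2 (16734 to 20623, 9325 to 12582 and 12482 to 13828) were lower. No endothelial or leukocyte marker passed the filter, and the endothelial sum, with PECAM1, CDH5, VWF and TEK, was at most 12.0 in any library. The part of these changes in the results on the guidance genes was not tested, and in bulk RNA fewer cells of a kind and less RNA per cell cannot be told apart.

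In vehicle-treated cells the guidance genes were led by SEMA3C, a secreted semaphorin, whose level per kilobase of exon was 3286 ± 95.4 normalised counts (SD, n = 3). It made up 76.0% ± 1.40 of the summed per-kilobase level of all semaphorins. PLXNB2, a receptor of class 4 semaphorins, followed with 763 ± 54.4 per kilobase, then EPHA2 with 494 ± 39.7 and EPHB4 with 490.0 ± 4.61. EPHA2 and EPHB4 were not separated, since their libraries overlapped. The next per-kilobase levels were 304 ± 21.2 for EFNA4, 293 ± 10.6 for PLXNA1, 290 ± 6.69 for EFNB1 and 290 ± 3.26 for SEMA4C, and the libraries of EFNA4, PLXNA1 and EFNB1 overlapped those of the following gene. SEMA4C did not overlap SEMA4B, the next in order. Over all 60 members ranked this way, the libraries of 43 of 59 neighbouring pairs overlapped.

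**Figure D1:**
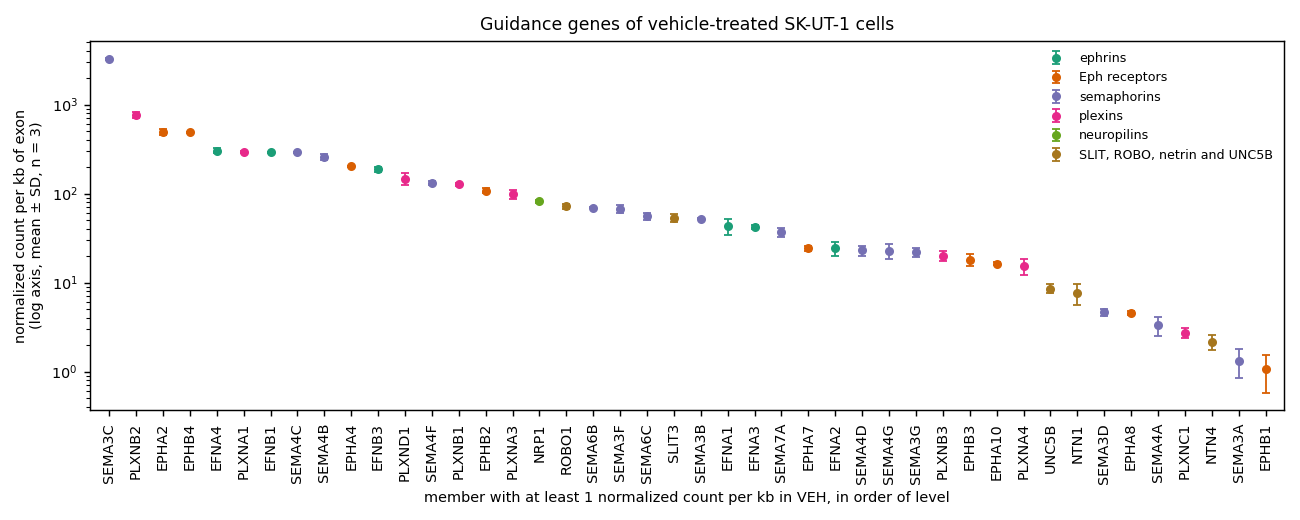
Level of the guidance genes in vehicle-treated SK-UT-1 cells, as normalised counts per kilobase of exon on a log axis (points are means and bars SDs of 3 libraries, colours are families, members under 1 are not drawn). SEMA3C, at 3286, stands above PLXNB2, at 763, and each further step down between neighbouring members drawn is smaller.

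The 14 members under the filter stayed low in every library. ROBO2, EPHA1, EPHA3, EFNA5, SEMA3E, SEMA5A and SEMA5B had at most 3 reads in any library, and EPHA5 at most 4. EPHA6, SEMA6D, EPHB1, EPHB6, NTN4 and PLXNA2 reached 8, 8, 9, 5, 12 and 13 reads. NTN4, a laminin-type netrin, had 9.69, 7.40 and 10.9 normalised counts in the VEH libraries, 1.10, 3.26, 1.0004 and 3.04 with JQ1 and 0.984, 3.01 and 2.95 with I-BET 762. Its VEH libraries lay above all treated ones, but it was not part of the main test. EPHA3 and SEMA5A, with at most 1 and 2 reads, have values identical to those of another symbol.

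With JQ1, 26 of the 46 tested members were called, that is they had an adjusted p under 0.05 (limma with Benjamini-Hochberg over all 14839 symbols tested) and a fold change over 1.5. Of these, 9 were higher and 17 lower than in VEH. Over all symbols tested 36.1% were called, 13.3% higher and 22.8% lower, against 56.5% of the tested members. I-BET 762 gave 24 called members, 9 higher and 15 lower, or 52.2% of those tested, where the background was 26.9%, with 8.96% higher and 17.9% lower. The median log2 fold change of the tested members was −0.34 with JQ1 and −0.22 with I-BET 762, and that of all symbols 0.01 and −0.00. Both comparisons use the same VEH libraries, so their values are given side by side. EFNB2, SLIT2 and SEMA6A were under 10 normalised counts in every VEH library and passed the filter through treated libraries alone, so their being higher there follows in part from the filter. SEMA3D reached 10 in every VEH library and in only 2 treated ones, so its being lower with the inhibitors follows in part from the filter too.

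**Figure D2:**
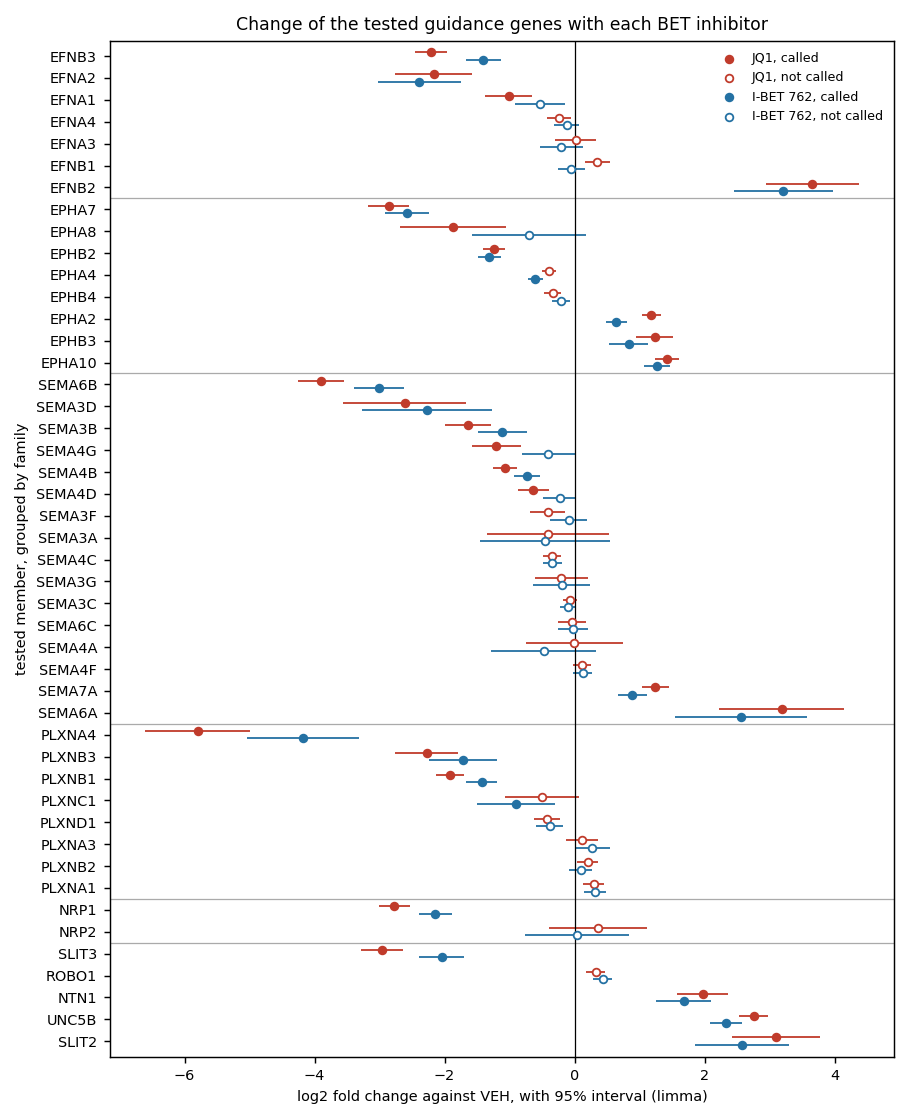
Change of each tested guidance gene against VEH on the log2(normalised count + 1) scale, with 95% intervals from limma (filled points were called, open points were not, grey lines separate the families). PLXNA4 lies farthest to the left, at −5.80 with JQ1 and −4.18 with I-BET 762, and EFNB2 farthest to the right, at 3.65 and 3.21.

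Among the ephrins, EFNB2 rose with both inhibitors, EFNA2 and EFNB3 fell with both, and EFNA1 fell with JQ1. EFNB2 encodes ephrin-B2, the preferred ligand of EPHB4 (chromosome 13, 106489745 to 106535662, minus strand). It had 3.87, 8.32 and 1.82 normalised counts in VEH, 62.6, 53.3, 63.0 and 72.0 with JQ1 and 42.3, 35.1 and 64.0 with I-BET 762. All 7 treated libraries lay well above the highest VEH library. EFNB2 was tested only because treated libraries passed the filter, so this gap and its p-values are not independent support for the rise. The log2 fold change was 3.65 (SE 0.34, adjusted p = 7.67e-08) with JQ1 and 3.21 (SE 0.36, adjusted p = 1.36e-06) with I-BET 762, and became 2.86 and 2.45 with a pseudocount of 5 in place of 1. An opposite-strand transcript overlaps 36.4% of the EFNB2 exons, and whether reads were counted by strand is not given in the sources used here.

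EFNB3, the ephrin-B with a known role as a midline barrier to axons, lies at chromosome 17, 7705202 to 7711372. Its normalised counts were 643, 611 and 563 in VEH, 146, 128, 112 and 136 with JQ1 and 235, 261 and 193 with I-BET 762. The groups did not overlap, with JQ1 the lowest. The fitted log2 change was −2.21 (SE 0.12, adjusted p = 1.06e-10) with JQ1 and −1.40 (SE 0.12, adjusted p = 1.04e-07) with I-BET 762. As a share of the summed per-kilobase level of the ephrin-Bs, EFNB3 went from 39.3% ± 1.16 in VEH to 9.69% ± 1.61 with JQ1 and 19.8% ± 2.81 with I-BET 762. The share of EFNB1 was 60.5% ± 1.18, 87.3% ± 1.93 and 77.6% ± 2.01 in the same order. EFNB2 remained a small part, with 2.98% ± 0.479 with JQ1.

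EFNA2, a lipid-anchored ephrin, had 60.05, 48.1 and 68.3 normalised counts in VEH, 13.2, 15.2, 12.0 and 9.13 with JQ1 and 7.87, 14.0 and 9.84 with I-BET 762. The treated groups overlapped each other and lay below every VEH library. Limma gave a log2 fold change of −2.17 (SE 0.28, adjusted p = 3.5e-06) with JQ1 and −2.39 (SE 0.30, adjusted p = 4.23e-06) with I-BET 762. EFNA1, a ligand of EPHA2, had 85.2, 116 and 80.1 in VEH, 47.2, 46.8, 42.0 and 44.6 with JQ1 and 68.9, 55.1 and 67.9 with I-BET 762. Its 3 groups did not overlap. It fell by 1.02 on the log2 scale with JQ1 (SE 0.17, adjusted p = 4.8e-05), while the I-BET 762 value of −0.53 (SE 0.18, adjusted p = 0.0175) was under the fold threshold. That value passed the threshold when VEH replicate 13, VEH replicate 15 or I-BET 762 replicate 21 was left out, at −0.59, −0.63 and −0.59.

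The other ephrins were not called. EFNB1, at 957 ± 22.1 (SD, n = 3) normalised counts in VEH, had a log2 fold change of 0.35 (adjusted p = 0.00238) with JQ1 and −0.05 (adjusted p = 0.665) with I-BET 762. EFNA4, the main ephrin-A of these cells with 73.4% ± 1.45 of the per-kilobase level in VEH, had −0.24 and −0.12, and EFNA3 had 0.01 and −0.21. EFNA3 and EFNA4 share 43.9% and 15% of their exons with the readthrough gene EFNA4-EFNA3. The readthrough gene has no values in these data, and how reads from the shared exons were counted is not known.

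**Figure D3:**
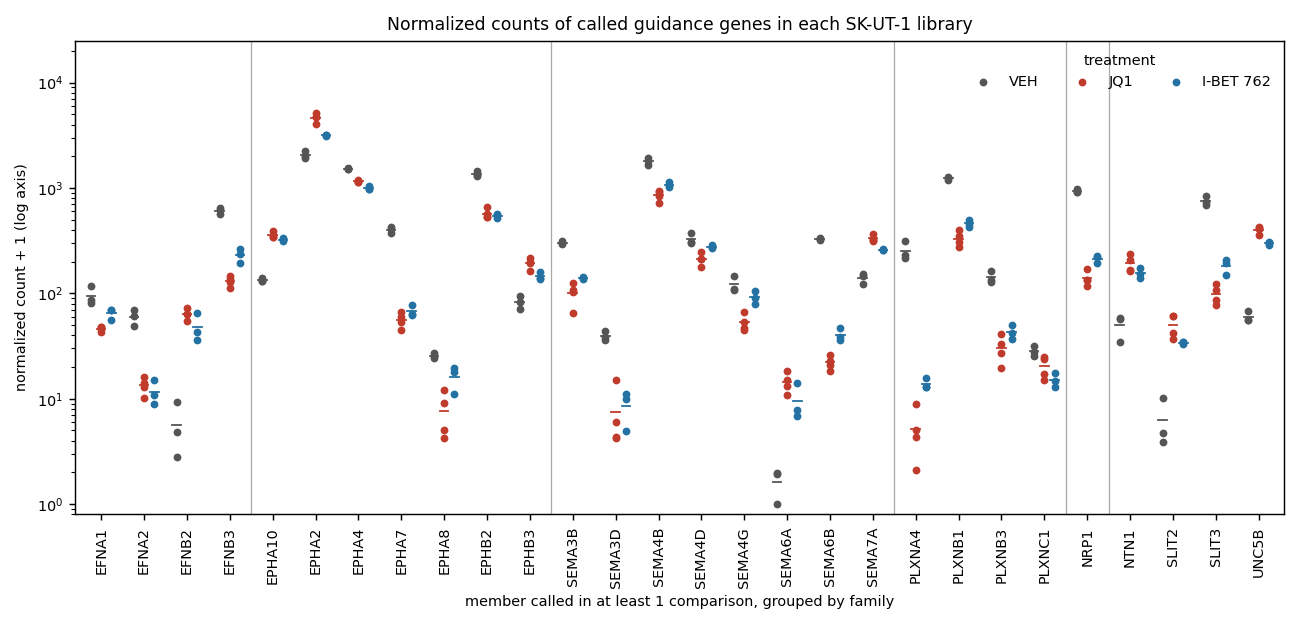
Normalised count plus 1 (log axis) of each member called in at least 1 comparison, in each library of VEH (grey), JQ1 (red) and I-BET 762 (blue), with a short line at the group mean and grey lines between families. SEMA6B, NRP1 and SLIT3 stand in 3 separate groups with JQ1 lowest, and UNC5B in 3 separate groups with JQ1 highest.

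Of the 8 Eph receptors tested, EPHA2, EPHA10 and EPHB3 rose with both inhibitors and EPHA7 and EPHB2 fell with both. EPHA8 fell with JQ1 and EPHA4 with I-BET 762. EPHA2, the receptor of ephrin-A1 and the most abundant EphA of these cells, had 2228, 1908 and 2001 normalised counts in VEH, 4715, 4017, 4702 and 5152 with JQ1 and 3199, 3146 and 3216 with I-BET 762. The 3 groups did not overlap, with JQ1 the highest. Its log2 fold change was 1.18 (SE 0.07, adjusted p = 5.36e-10) with JQ1 and 0.64 (SE 0.08, adjusted p = 2.63e-06) with I-BET 762. When the libraries were scaled to equal totals, the I-BET 762 value was 0.55, under the threshold. EPHA2 made up 66.5% ± 2.03 of the EphA level per kilobase in VEH, 84.6% ± 1.08 with JQ1 and 81.1% ± 0.520 with I-BET 762.

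EPHA10, which lacks an active kinase, had 131, 131 and 138 in VEH, 392, 339, 343 and 359 with JQ1 and 310.0, 325 and 334 with I-BET 762. Every treated library was above every VEH library. Against VEH, the log2 fold change was 1.42 (SE 0.09, adjusted p = 6.02e-10) with JQ1 and 1.27 (SE 0.09, adjusted p = 1.18e-08) with I-BET 762. EPHB3, a kinase-active receptor of ephrin-Bs, had 93.9, 69.3 and 81.0 in VEH, 160.4, 195, 197 and 215 with JQ1 and 139, 136 and 158 with I-BET 762. Its groups did not overlap. The change in log2 units was 1.23 (SE 0.14, adjusted p = 5.95e-07) and 0.83 (SE 0.14, adjusted p = 0.00013).

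EPHA7 showed the largest fall among the Eph receptors. It had 376, 404 and 426 normalised counts in VEH, 52.7, 58.8, 65.0 and 43.6 with JQ1 and 61.01, 62.2 and 76.8 with I-BET 762. The treated groups overlapped each other far below VEH. The log2 fold change was −2.86 (SE 0.15, adjusted p = 8.68e-11) with JQ1 and −2.58 (SE 0.16, adjusted p = 1.72e-09) with I-BET 762. EPHB2, a receptor of ephrin-Bs, had 1438, 1296 and 1326 in VEH, 564, 526, 535 and 660.3 with JQ1 and 549, 567 and 517 with I-BET 762. Both treated groups were below every VEH library and overlapped. The fitted log2 change was −1.25 (SE 0.08, adjusted p = 1e-09) and −1.31 (SE 0.09, adjusted p = 3.15e-09).

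EPHA4, which can bind ephrin-As and ephrin-Bs, had 1524, 1553 and 1514 normalised counts in VEH, 1147, 1130.5, 1171 and 1189.7 with JQ1 and 983, 1047 and 987 with I-BET 762. Its groups did not overlap, and I-BET 762 was the lowest. The log2 fold change of −0.61 (SE 0.05, adjusted p = 1.2e-07) with I-BET 762 was just past the fold threshold, and the −0.40 (SE 0.05, adjusted p = 3.25e-06) with JQ1 was not. With equal totals the JQ1 value was −0.59 and passed. EPHA8, a low-level receptor of ephrin-As, had 23.2, 25.9 and 24.6 in VEH, 10.99, 3.26, 4.002 and 8.11 with JQ1 and 18.7, 10.03 and 16.7 with I-BET 762. All treated libraries were below VEH, and the inhibitor groups overlapped. Limma gave a log2 fold change of −1.88 (SE 0.38, adjusted p = 0.000378) with JQ1 and −0.70 (SE 0.41, adjusted p = 0.149) with I-BET 762. EPHB4, the main EphB receptor with 79.3% ± 0.987 of the per-kilobase level in VEH, had −0.34 (adjusted p = 9.02e-05) and −0.21 (adjusted p = 0.00819) and was not called.

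Among the semaphorins, SEMA6A and SEMA7A rose with both inhibitors, SEMA3B, SEMA3D, SEMA4B and SEMA6B fell with both, and SEMA4D and SEMA4G fell with JQ1. The other 8 tested were not called. SEMA3C, by far the most abundant, was among them and had 19372, 20422 and 20332 normalised counts in VEH, 18814, 20828, 18712 and 17857 with JQ1 and 18733, 18594 and 18482 with I-BET 762. Its log2 fold change was −0.07 (95% interval −0.19 to 0.04, adjusted p = 0.209) and −0.11 (−0.23 to 0.01, adjusted p = 0.107). It made up most of the semaphorin level per kilobase in these groups as well, 80.4% ± 2.31 with JQ1 and 79.1% ± 0.322 with I-BET 762.

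SEMA6B, a transmembrane semaphorin and ligand of PLXNA4 (chromosome 19, 4542593 to 4581776, minus strand), showed the largest fall among the semaphorins. It had 331, 323 and 324 normalised counts in VEH, 25.3, 21.8, 20.0 and 17.2 with JQ1 and 37.4, 46.1 and 35.4 with I-BET 762. The 3 groups were fully separated, with JQ1 the lowest. Against VEH, the log2 fold change was −3.90 (SE 0.17, adjusted p = 1.05e-11) with JQ1 and −3.02 (SE 0.18, adjusted p = 1.26e-09) with I-BET 762. SEMA6A, its relative in the same class, moved the other way from a level of almost nothing. It had 0.969, 0 and 0.910 in VEH, which are 2 reads in all, then 9.89, 17.4, 14.0 and 12.2 with JQ1 and 5.90, 13.0 and 6.89 with I-BET 762. The ratio to VEH was 21.5 (95% exact counting interval 5.65 to 182) with JQ1 and 13.8 (3.45 to 120) with I-BET 762, covering counting error only. SEMA6A was tested only because treated libraries passed the filter. These intervals and the p-values below are therefore not independent support for its being higher there. On the log2 scale the adjusted p was 9.8e-06 and 0.000255 by limma, and the fitted values of 3.18 and 2.56 became 1.70 and 1.24 when the pseudocount was 5.

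The secreted class 3 members SEMA3B and SEMA3D fell. SEMA3B, which lies at 3p21 near SEMA3F, had 296, 300.5 and 310.3 in VEH, 123, 64.2, 102 and 108 with JQ1 and 142, 136 and 139 with I-BET 762. Its groups did not overlap. The change in log2 units was −1.64 (SE 0.17, adjusted p = 2.46e-07) and −1.12 (SE 0.18, adjusted p = 5.52e-05). SEMA3D, a ligand for neuropilin-1 and plexin-D1 complexes, had 42.6, 35.1 and 37.3 in VEH, 3.30, 3.26, 14.0 and 5.07 with JQ1 and 8.86, 10.03 and 3.94 with I-BET 762. The treated values were few reads each and scattered, all below VEH, and the gene was tested only because its VEH libraries passed the filter. The log2 fold change was −2.62 (SE 0.44, adjusted p = 6.44e-05) and −2.27 (SE 0.47, adjusted p = 0.000629), and the JQ1 value was −2.01 with a pseudocount of 5.

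The transmembrane class 4 members that were called all fell. SEMA4B had 1919.6, 1652 and 1822 in VEH, 924, 719, 836 and 940.2 with JQ1 and 1145, 1071 and 1019.9 with I-BET 762, in 3 separate groups. The fitted log2 change was −1.08 (SE 0.09, adjusted p = 1.32e-08) and −0.74 (SE 0.09, adjusted p = 4.19e-06). SEMA4G had 146, 106 and 109 in VEH, 46.2, 43.5, 52.0 and 65.9 with JQ1 and 88.6, 104 and 78.8 with I-BET 762. It fell with JQ1 by 1.20 on the log2 scale (SE 0.18, adjusted p = 1.51e-05), while the I-BET 762 value was −0.40 (SE 0.19, adjusted p = 0.0757), though its libraries lay below VEH. The opposite-strand genes overlap 28% of the SEMA4G exons. One of them is MRPL43, at 1889 ± 120 (SD, n = 3) in VEH, 1773 ± 116 (n = 4) with JQ1 and 1800 ± 142 (n = 3) with I-BET 762, so SEMA4G counts are uncertain. SEMA4D, a ligand of PLXNB1, had 374, 305 and 300.3 in VEH, 176, 209, 212 and 243 with JQ1 and 268, 277 and 286 with I-BET 762, in 3 separate groups. Its log2 fold change of −0.64 with JQ1 (SE 0.11, adjusted p = 0.000104) fell to −0.53 without VEH replicate 13 and −0.55 without JQ1 replicate 17, both under the fold threshold. With I-BET 762 it was −0.23 (SE 0.12, adjusted p = 0.112).

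SEMA7A, a lipid-anchored semaphorin that binds integrins and PLXNC1, rose. It had 146, 123 and 150.2 normalised counts in VEH, 323, 310.1, 325 and 366 with JQ1 and 258, 257 and 259.9 with I-BET 762. The 3 groups were separate, with JQ1 the highest. Limma gave a log2 fold change of 1.24 (SE 0.10, adjusted p = 1.2e-08) with JQ1 and 0.89 (SE 0.10, adjusted p = 2.4e-06) with I-BET 762. Among the semaphorins not called, SEMA4C had −0.35 (adjusted p = 0.000164) and −0.35 (adjusted p = 0.00042). SEMA3F, the main NRP2 ligand, had −0.42 (adjusted p = 0.00771) and −0.10 (adjusted p = 0.56), and its JQ1 value reached −0.60 with equal totals. SEMA3A, SEMA3G, SEMA4A, SEMA4F and SEMA6C had log2 fold changes between −0.48 and 0.12. The 95% intervals of SEMA3A and SEMA4A, which had few reads, were wide, −1.34 to 0.53 and −0.75 to 0.75 with JQ1.

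Of the 8 plexins tested, PLXNA4, PLXNB1 and PLXNB3 fell with both inhibitors, PLXNC1 fell with I-BET 762, and none rose. PLXNA4, a receptor of SEMA6 ligands and, with NRP1, of SEMA3A (chromosome 7, 132123340 to 132648688, minus strand), had the largest change of all members. It had 312, 215 and 231 normalised counts in VEH, 3.30, 1.09, 8.004 and 4.06 with JQ1 and 14.8, 12.0 and 11.8 with I-BET 762. The 3 groups were separate, and the JQ1 libraries held at most 8 reads. Against VEH, the log2 fold change was −5.80 (SE 0.38, adjusted p = 1.25e-09) with JQ1 and −4.18 (SE 0.40, adjusted p = 2.59e-07) with I-BET 762. The JQ1 value was −4.86 with a pseudocount of 5.

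PLXNB1, the SEMA4D receptor, had 1280.4, 1245 and 1188 in VEH, 347, 273, 305 and 396 with JQ1 and 427, 495 and 457 with I-BET 762, in 3 separate groups. The change in log2 units was −1.92 (SE 0.10, adjusted p = 1.36e-10) and −1.43 (SE 0.11, adjusted p = 2.25e-08). PLXNB3, a SEMA5A receptor, had 163, 134 and 126 in VEH, 31.9, 18.5, 26.0 and 40.6 with JQ1 and 49.2, 36.1 and 41.3 with I-BET 762. Both treated groups were below VEH and overlapped. The log2 fold change was −2.28 (SE 0.23, adjusted p = 2.19e-07) and −1.72 (SE 0.25, adjusted p = 1.78e-05). The same-strand gene SRPK3 overlaps 20.4% of its exons and was nearly silent, at a mean of 1.85 normalised counts in VEH. Within the plexin-Bs, PLXNB2 went from 83.8% ± 0.757 of the per-kilobase level in VEH to 95.9% ± 0.423 with JQ1 and 93.9% ± 0.327 with I-BET 762, and its own log2 fold change was 0.20 (adjusted p = 0.0307) and 0.09 (adjusted p = 0.344).

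PLXNC1, the SEMA7A receptor, had 24.2, 26.8 and 30.9 in VEH, 23.1, 16.3, 24.0 and 14.2 with JQ1 and 16.7, 12.0 and 13.8 with I-BET 762. All treated libraries lay below VEH, by little in some JQ1 libraries. The fitted log2 change was −0.50 (SE 0.27, adjusted p = 0.105) with JQ1 and −0.90 (SE 0.28, adjusted p = 0.0119) with I-BET 762, where the call was lost without VEH replicate 15, at −0.81 (adjusted p = 0.0527). PLXND1 had −0.43 and −0.38, PLXNA1 0.29 and 0.31, and PLXNA3 0.11 and 0.27, and none of these was called. With equal totals the JQ1 values of PLXNC1 and PLXND1 were −0.68 and −0.61 and passed.

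NRP1, the co-receptor that class 3 semaphorins and VEGF share (chromosome 10, 33177492 to 33336262, minus strand), fell with both inhibitors. It had 920.1, 924 and 985 normalised counts in VEH, 118, 133, 169 and 133 with JQ1 and 194, 226 and 219.5 with I-BET 762. The 3 groups were fully separated. Limma gave a log2 fold change of −2.78 (SE 0.11, adjusted p = 4.43e-12) with JQ1 and −2.14 (SE 0.12, adjusted p = 5.51e-10) with I-BET 762. NRP2 was low, at 13.6, 9.24 and 16.4 in VEH, and had 0.35 (95% interval −0.40 to 1.11) and 0.04 (−0.77 to 0.84). The summed neuropilin level per kilobase was 82.8 ± 3.33 in VEH, 13.2 ± 2.02 with JQ1 and 19.5 ± 1.74 with I-BET 762.

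In the last group, SLIT2, NTN1 and UNC5B rose with both inhibitors and SLIT3 fell with both. SLIT3 (chromosome 5, 168661740 to 169301139, minus strand) had 841, 686 and 736 normalised counts in VEH, 75.8, 86.0, 121 and 106 with JQ1 and 149.6, 206 and 193 with I-BET 762. The groups were separate, with JQ1 the lowest. Against VEH, the log2 fold change was −2.96 (SE 0.15, adjusted p = 7.78e-11) and −2.05 (SE 0.16, adjusted p = 3.05e-08). SLIT2, whose promoter is given above, had 2.91, 3.70 and 9.10 in VEH, 59.3, 41.3, 60.03 and 35.5 with JQ1 and 33.5, 32.1 and 33.5 with I-BET 762. The groups were separate, with VEH close to the counting limit. SLIT2 was tested only because treated libraries passed the filter, so this gap and its p-values are not independent support for the rise. The change in log2 units was 3.10 (SE 0.32, adjusted p = 2.71e-07) and 2.58 (SE 0.34, adjusted p = 7.82e-06), or 2.42 and 1.94 with a pseudocount of 5. SLIT2 was 0.9004% ± 0.591 of the summed level of SLIT2 and SLIT3 per kilobase in VEH, 39.4% ± 8.28 with JQ1 and 19.1% ± 2.91 with I-BET 762. That sum went from 53.4 ± 5.45 to 11.3 ± 1.82 and 15.8 ± 2.01.

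NTN1, which encodes netrin-1, had 57.1, 56.4 and 33.7 in VEH, 233, 161, 206 and 167 with JQ1 and 153, 139 and 174 with I-BET 762. The treated groups overlapped above VEH. The log2 fold change was 1.97 (SE 0.18, adjusted p = 9.26e-08) and 1.68 (SE 0.20, adjusted p = 2.26e-06). UNC5B, a netrin-1 receptor (chromosome 10, 71212570 to 71302864), had 66.8, 54.5 and 54.6 in VEH, 419, 354, 410.2 and 421 with JQ1 and 300.1, 304 and 286 with I-BET 762. Its 3 groups were separate, with JQ1 the highest. The fitted log2 change was 2.75 (SE 0.11, adjusted p = 2.61e-12) and 2.33 (SE 0.11, adjusted p = 1.24e-10). ROBO1, a SLIT receptor, at 791 ± 42.8 (SD, n = 3) in VEH, had 0.32 (adjusted p = 0.000422) and 0.43 (adjusted p = 8.11e-05), under the fold threshold.

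JQ1 and I-BET 762 were given at the same dose and time, so their responses can be set against each other. JQ1 is built on a thienotriazolodiazepine and I-BET 762 on a benzodiazepine fused to the same kind of triazole. Of the 46 tested members, 7 were called lower with JQ1 than with I-BET 762 and 0 higher, or 15.2%, against a background of 5.31%, with 1.73% higher and 3.59% lower. At an unadjusted p under 0.05, 6 members were higher and 14 lower by limma, and limma-voom on the recovered reads called 0 higher and 7 lower. At an adjusted p under 0.05 with no fold threshold, 6 were higher and 12 lower. Over all 14839 symbols tested, 2847 were higher and 2897 lower at the unadjusted threshold, and 1973 and 2074 at the adjusted one.

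All 7 members called lower with JQ1 had a lower mean in both treated groups than in VEH. They were PLXNA4 (−1.62, SE 0.38, adjusted p = 0.00525), EPHA8 (−1.17, SE 0.38, adjusted p = 0.0331), SLIT3 (−0.91, SE 0.15, adjusted p = 0.000469), SEMA6B (−0.88, SE 0.17, adjusted p = 0.00131), EFNB3 (−0.80, SE 0.12, adjusted p = 0.000143), SEMA4G (−0.80, SE 0.18, adjusted p = 0.0037) and NRP1 (−0.63, SE 0.11, adjusted p = 0.000721). For all of these but EPHA8, the JQ1 libraries lay wholly below the I-BET 762 libraries. The PLXNA4 value was −1.02 with a pseudocount of 5. The EPHA8 call was lost without JQ1 replicate 18 (−0.94, adjusted p = 0.0654), JQ1 replicate 19 (−1.02, adjusted p = 0.0785), I-BET 762 replicate 21 (−1.01, adjusted p = 0.136) or I-BET 762 replicate 23 (−1.08, adjusted p = 0.111). The NRP1 call was lost without JQ1 replicate 17, at −0.56 (adjusted p = 0.00203).

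In the other direction, the 6 members with an adjusted p under 0.05 were EPHA2 (0.54, adjusted p = 6.5e-05), UNC5B (0.43, adjusted p = 0.00728), EFNB1 (0.40, adjusted p = 0.00389), EPHB3 (0.40, adjusted p = 0.038), SEMA7A (0.36, adjusted p = 0.0138) and EPHA4 (0.21, adjusted p = 0.00783), all under the fold threshold. EPHA2 passed it without JQ1 replicate 18, at 0.61. Lower but under the threshold were SEMA3B (−0.52, adjusted p = 0.0299), EFNA1 (−0.49, adjusted p = 0.0414), PLXNB1 (−0.49, adjusted p = 0.00278), SEMA4D (−0.41, adjusted p = 0.0145) and SEMA4B (−0.34, adjusted p = 0.00822). SEMA3B passed without JQ1 replicate 17 (−0.64), EFNA1 without I-BET 762 replicate 22 (−0.59) and PLXNB3 without JQ1 replicate 20 (−0.73). For several large responders no difference between the compounds was detected, which does not show that they act alike. The 95% interval of the difference was −0.27 to 1.16 for EFNB2, −0.37 to 0.81 for EFNA2, −0.59 to 0.04 for EPHA7, −0.11 to 0.23 for EPHB2, −1.29 to 0.60 for SEMA3D, −0.10 to 0.68 for NTN1 and −0.15 to 1.20 for SLIT2.

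**Figure D4:**
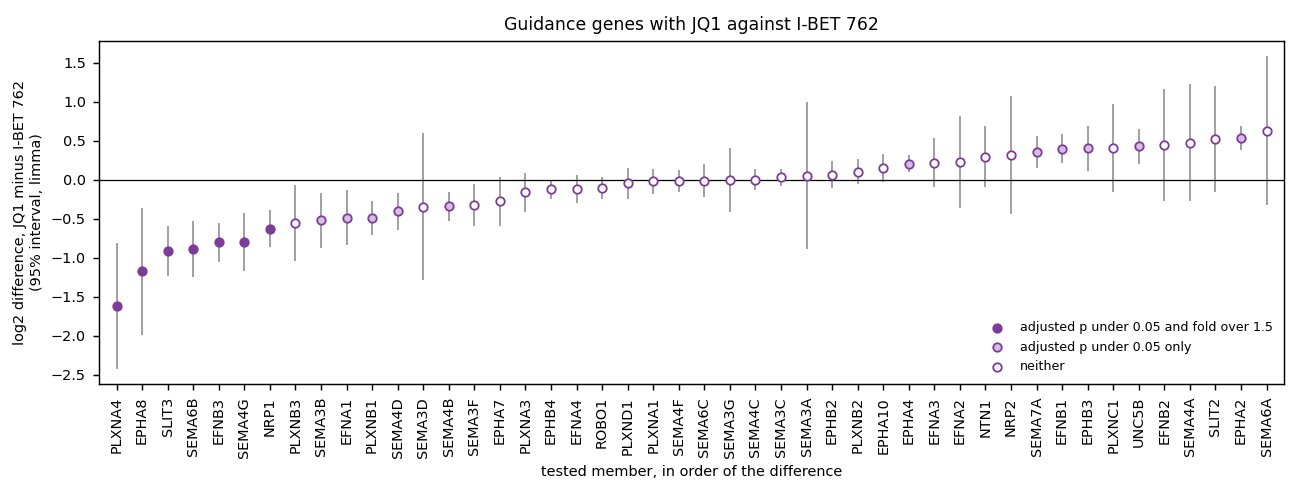
Difference between JQ1 and I-BET 762 for each tested guidance gene on the log2(normalised count + 1) scale, with 95% intervals from limma, in order of size (dark points passed adjusted p and fold, pale points adjusted p only, open points neither). The 7 dark points, from PLXNA4 at −1.62 to NRP1 at −0.63, all lie below 0.

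The signaling partners of these genes were followed in 4 lists of effectors and further ligands and receptors, to be read against the 36.1% and 26.9% of all symbols called with JQ1 and I-BET 762. Among the Eph and ephrin effectors, 3 rose and 10 fell of 25 with JQ1, and 2 rose and 7 fell with I-BET 762. FYN, a Src-family kinase, had 1.58 (adjusted p = 1.77e-12) and 1.29 (adjusted p = 1.21e-10) on the log2 scale, and TIAM1, an exchange factor for Rac, 1.04 and 1.06. KALRN, another exchange factor, had −1.41 and −0.89, the scaffold PICK1 −1.29 and −0.96, and the kinase SRC −1.17 and −1.05. NGEF, an exchange factor bound by EphA receptors, had −1.05 and −1.05.

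Among the semaphorin and plexin effectors, 6 rose and 8 fell of 26 with JQ1, and 5 rose and 6 fell with I-BET 762. The collapsin response mediator DPYSL3 had 3.38 (SE 0.11, adjusted p = 3.38e-13) with JQ1 and 3.32 (SE 0.11, adjusted p = 3.53e-12) with I-BET 762, and DPYSL4 had 1.54 and 1.17. DPYSL5 of the same family had −2.11 and −1.26, and the small GTPase RND2 −1.51 and −0.85. L1CAM, a semaphorin co-receptor, had −1.12 and −0.98. The family of collapsin response mediators thus held members that moved in opposite directions.

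Among 11 further netrin, SLIT and RGM ligands and receptors, 2 rose and 5 fell with each inhibitor. ROBO4 had −4.03 (SE 0.56) and −3.16 (SE 0.59), FLRT2 −1.56 (SE 0.22) and −1.62 (SE 0.23) and SLIT1 −1.12 (SE 0.27) and −1.04 (SE 0.29). ROBO3 had −1.09 (SE 0.10) and −0.87 (SE 0.11) and the netrin receptor UNC5A −0.94 (SE 0.27) and −1.05 (SE 0.29). When the mean normalised count had to reach 100, 3 genes of this list were called with JQ1 in place of 7, so several of its calls rest on low counts. The receptor NEO1 had 1.003 and 1.03 and its ligand RGMB 1.05 and 0.74. Of the 16 netrin and SLIT effectors 1 rose and 3 fell with each inhibitor. The actin-binding ABLIM3 had −2.54 (SE 0.46) and −1.62 (SE 0.49), its relative ABLIM1 −1.14 and −0.87 and MAGED1 −0.97 and −0.77. The 1 called higher was ENAH with JQ1 (0.59) and PITPNA with I-BET 762 (0.69). With the other inhibitor each was also higher but under the fold threshold. By limma, ENAH had 0.42 with I-BET 762 (adjusted p = 1.59e-06) and PITPNA 0.56 with JQ1 (adjusted p = 2.15e-07). Between the compounds, DPYSL5 (−0.85, adjusted p = 0.00175) and RND2 (−0.66, adjusted p = 3.56e-05) were called lower with JQ1. KALRN was also called without JQ1 replicate 19 (−0.61) or I-BET 762 replicate 21 (−0.63).

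**Figure D5:**
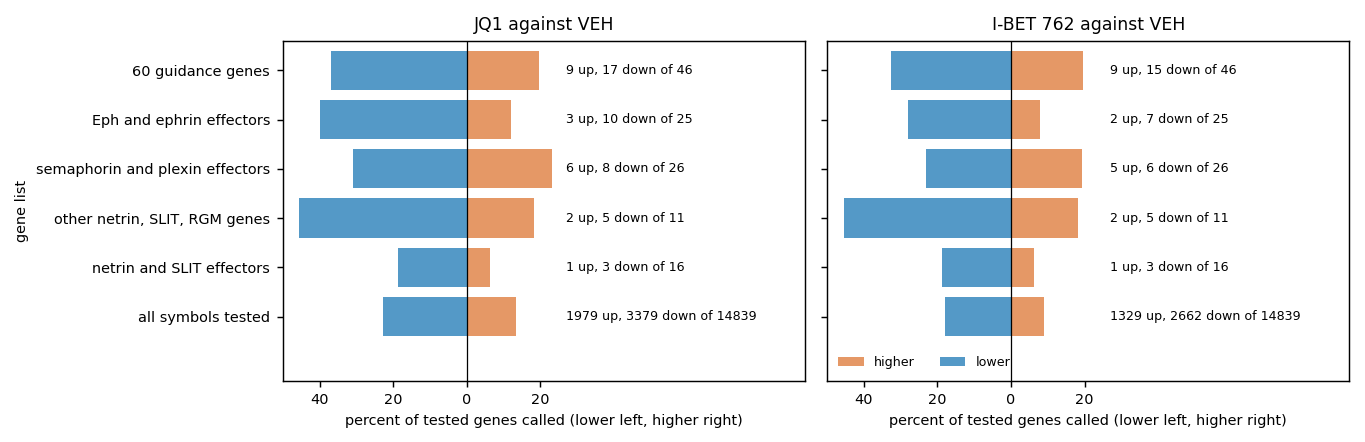
Share of tested genes called lower (blue, left) and higher (orange, right) against VEH, in percent, for the guidance genes, the 4 lists of their partners and all symbols, with the numbers of genes beside each bar. The shortest bars in total belong to the netrin and SLIT effectors, at 25% for either compound (1 up and 3 down of 16). Over all symbols the share is 36.1% for JQ1 and 26.9% for I-BET 762. Whether this small list differs from all symbols was not tested.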

How the data were processed

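Of 12 labelled RNA-seq libraries, 10 were used. VEH replicate 16 and I-BET 762 replicate 24 had no values in the deposited expression data, and whether the submitters excluded them as outliers is not stated. Per the submitters' notes and methods, read quality was checked with FastQC 0.73, Trimmomatic trimmed the reads, HISAT2 2.2.1 aligned them to hg38, featureCounts 2.0.3 counted them on Gencode V41 genes, DESeq2 normalized the counts, and outlier samples were excluded. Libraries were strand-specific. The values deposited by the authors are log2(normalized count + 1), 1 per symbol and library. Whole reads were recovered for 99.77% to 99.81% of values (tolerance 0.1 read), and replicates differed beyond sampling noise in all 12 pairs.

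Groups came from the labelled treatment. Symbols with at least 10 normalized counts in at least 3 libraries (14839) were fitted with limma 3.58.1 (R 4.3.3) on the deposited log2 values, in 1 model over all libraries with an intensity trend and Benjamini-Hochberg adjustment, tested on simulated data. Calls needed an adjusted p under 0.05 and a fold over 1.5. Fold changes on this scale understate low genes. Levels per kilobase and positions use the merged exons of Gencode V44 on GRCh38. Members called in any comparison are named with every library, and pathway genes are the called ones of largest change, up to 4 per list and comparison. A gene and a list of partners are not reported here. NEO1 and RGMB were named after their values were seen. The members and lists were chosen with earlier results of these data known. Alternatives changed the pseudocount, filter, scaling, trend, samples, fold threshold or tool (limma-voom on recovered reads).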

Additional observations from a re-analysis of the deposited data

Results flagged for a closer look

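Among the 46 tested members, the 4 JQ1 libraries were checked for a single library standing apart on the log2(normalized count + 1) scale, as the gap to the nearest library divided by the range of the group (Dixon's ratio). Chance gives about 1 such flag in 20 groups, and 3 were found in 46 groups, which is close to that rate. NRP2 had 9.13 normalized counts in JQ1 replicate 20, the lowest of the group, with a ratio of 0.844. PLXNA1 had 3321 normalized counts in JQ1 replicate 18, the lowest, with a ratio of 0.910, and UNC5B had 354 in the same library, the lowest, with a ratio of 0.852. UNC5B was still far above VEH in that library. JQ1 replicate 18 holds 2 of the 3 flags and stood apart from the other JQ1 libraries over all genes too.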

How the results depend on the processing

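Of 57 called differences of members, 44 held under every alternative in which the member was tested, 52 under all of these but a 2-fold threshold, and 0 reversed. When the mean normalized count had to reach 100, only 31 of the 46 members were tested, and 16 were called with JQ1 in place of 26, 16 with I-BET 762 in place of 24, and 4 between the inhibitors in place of 7. Of the 11072 symbols tested under that filter, 3359, 2338 and 418 were called in the same order. Between the inhibitors, 18 members were called with no fold threshold and 2 with a 2-fold one, where 4047 and 206 of all 14839 symbols tested were. Leaving out 1 library at a time gave 25 to 26 called with JQ1, 24 to 25 with I-BET 762 and 6 to 8 between them. Among all symbols tested, the same fits called 4962 to 5394, 3615 to 4018 and 603 to 873. With no filter, EPHB6 (−1.70) and NTN4 (−1.81) were also called with JQ1, and NTN4 (−1.70) and ROBO2 (1.18) with I-BET 762. Scaling to equal totals moved the median log2 fold change of all symbols by JQ1 to −0.18, where it had been 0.01, and by I-BET 762 to −0.10, where it had been −0.00, and 30 members were then called with JQ1. Of all 14839 symbols tested, 5439 were called with JQ1 after that scaling. EPHA8 between the inhibitors was also lost with no filter (adjusted p = 0.0638) and with 2 groups only (adjusted p = 0.0662). The pathway genes called came to 63 with JQ1, 60 with I-BET 762 and 25 between the inhibitors with no fold threshold, in place of 38, 31 and 2, and to 22 and 13 with a 2-fold one against VEH. Over all 14839 symbols tested, the counts were 10633, 9073 and 4047 with no fold threshold, in place of 5358, 3991 and 788. With a 2-fold threshold they were 2958 and 2108 against VEH. The cause of these moves was not tested beyond the change of threshold, filter or scaling itself. No paired analysis was possible because the replicate numbers 13 to 24 are all different. Members with under 10 reads, such as SEMA6A in VEH and PLXNA4 with JQ1, are limited by depth.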
